A study of Mus musculus with 10 samples.

Results

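The RNA of 35 genes of glycolysis, glycogen and pyruvate metabolism was measured in the right atrium of adult mice. The genes were chosen by symbol for their role, from the glucose transporters to the pyruvate dehydrogenase kinases, and all 35 were found among the 23337 genes of the count table. The libraries came from 4 controls and 6 Tbx5 mutants by label, of mixed strain and with right atria dissected. In the mice labelled Tbx5 mutant, exon 3 of Tbx5, the gene of a cardiac T-box transcription factor, was targeted for removal by a tamoxifen-inducible Cre under the R26 promoter, which is active in all cells and not in cardiomyocytes alone. The labels of both groups describe 0.167 mg of tamoxifen per day for 3 days and death 1 week later. In the mouse model of the study both groups carry R26CreERt2 and the mutants also carry Tbx5 fl/fl, while for these libraries the label of the first group says "Control" and no more. The labels give an age of 8 to 10 weeks in one field and of 6 to 8 weeks in another, and they describe both an mRNA kit with globin RNA removed and a total RNA library depleted of ribosomal RNA.

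Total counts were between 5703775 and 7095141 per library. Reads of Tbx5, counted over the whole gene, were more frequent in every mouse labelled mutant (275 to 475 CPM, the counts scaled to library size) than in any mouse labelled control (184 to 224 CPM). A count over the whole gene does not show whether exon 3 was lost, and both groups are called by their labels throughout. The library of mutant M3 held 38.9% of its counts in ribosomal Rn45s, against 0.268% to 1.49% in the other 9. Controls M1 and M2, labelled male, had 10149 and 7850 reads of Xist and 0 of the Y-linked Ddx3y, and controls F1 and F2, labelled female, had 5 and 14 reads of Xist and 1319 and 1124 of Ddx3y, so that the sex labels of the control mice went against these reads. Nothing in the labels says that the mice came from separate litters, and p-values measure the spread between these samples.

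Glycolysis splits glucose into pyruvate in the cytosol, with phosphofructokinase as its main point of control. Pyruvate is then either reduced to lactate, which leaves or enters cells through monocarboxylate transporters, or oxidised in mitochondria by pyruvate dehydrogenase, which its kinases switch off. The heart takes most of its energy from fatty acids and uses glucose, lactate and stored glycogen beside them, and many steps have a muscle isoenzyme and a more widely expressed one.

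Of the 35 genes, 31 passed the filter on low counts and were tested with edgeR, which compares counts per gene between groups. Lower values were seen for Pfkfb2, the cardiac form of the enzyme that makes the activator of phosphofructokinase, which fell to 0.474 times its level in the labelled controls. Higher values were seen for Slc16a3, an exporter of lactate, which rose 2.02-fold, for Pgk1, phosphoglycerate kinase, which rose 1.64-fold, and for Eno3, the muscle enolase, which rose 1.5-fold. These 4 genes were called, which required a Benjamini-Hochberg adjusted p under 0.05, a fold change over 1.5 and a mean over 1 of the authors' normalized value in the controls. Of all 13084 genes tested, 7.16% were called lower and 8.50% higher, against 1 lower and 3 higher of the 31 genes here. With the adjusted p alone, 3 of the 31 genes were lower (Pfkfb2, Pdk1 and Pdk2) and 11 were higher (Pfkl, Pfkp, Aldoa, Tpi1, Pgk1, Eno3, Ldha, Slc16a1, Slc16a3, Pygb and Ugp2). Over all genes tested the shares were 15.0% lower and 16.3% higher.

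The median log2 fold change of the 31 genes was 0.17, against -0.005 over all genes tested, and 22 of the 31 lay above 0. Without mutant M3, 4 genes were called, 2 lower and 2 higher, and 3 lower and 10 higher genes had an adjusted p under 0.05. Pfkfb2 and Slc16a3 were called in all 24 alternative fits, Pgk1 in 22 and Eno3 in 15. Without mutant M2 the called genes were 2, since Pgk1 and Eno3 ended under the fold of 1.5, and Eno3 was also not called without mutant M3, control M1 or control F1. In bulk samples, fewer cells of a type and less RNA per cell cannot be told apart.

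**Figure D1:**
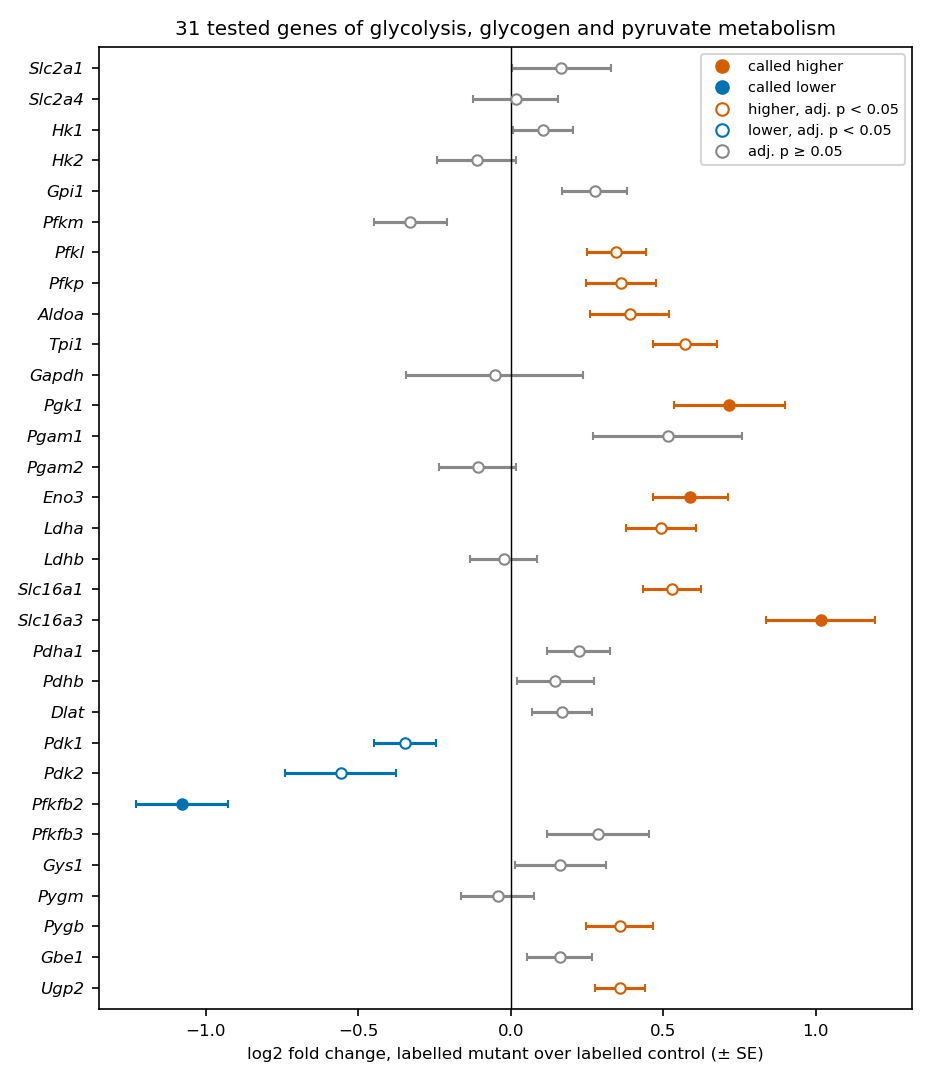
Log2 fold change of the mice labelled Tbx5 mutant over those labelled control (horizontal axis, bars ± SE from the edgeR fit) for the 31 tested genes, ordered from glucose uptake to glycogen. Filled points are the 4 called genes (1 lower, 3 higher), open coloured points have an adjusted p under 0.05 alone, and grey points do not.

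Across the wider table, shorter genes were higher and longer genes lower in the mice labelled mutant: Spearman's rho between transcript length and log2 fold change was -0.33 across 12950 genes, a description across genes, which are not independent replicates. The 11 members that rose had a median transcript length of 2683 bases, the 3 that fell 4425 bases and all tested genes 3204 bases. With each library's trend on length removed, Pgk1 (log2 fold change 0.58) and Eno3 (0.43) no longer passed the fold of 1.5, Slc16a1 (0.61) and Pdk2 (-0.65) did, and the adjusted p from edgeR rose to 0.132 for Aldoa and 0.0905 for Pdk1. Pfkm (-0.36, adjusted p = 0.0316 by edgeR) and Pgam2 (-0.37, adjusted p = 0.0158) were lower by the adjusted p in that fit.

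Because several of the genes that rose are known targets of hypoxia-inducible factors, their promoters were searched for the cores ACGTG and GCGTG of the hypoxia response element on both strands. The bases shown are the 250 before the start of transcription in RefSeq, on GRCm38.p6, with these cores or their reverse complements in capitals. They belong to the 3 genes called higher, to the 1 called lower and to Ldha, the muscle-type lactate dehydrogenase, of which the first of 3 starts is shown for Pfkfb2 and the first of 2 for Ldha. The windows are chr11:120948817-120949066 (+) for Slc16a3, chrX:106186850-106187099 (+) for Pgk1, chr11:70656926-70657175 (+) for Eno3, chr1:130715822-130716071 (-) for Pfkfb2 and chr7:46845554-46845803 (+) for Ldha.
Slc16a3: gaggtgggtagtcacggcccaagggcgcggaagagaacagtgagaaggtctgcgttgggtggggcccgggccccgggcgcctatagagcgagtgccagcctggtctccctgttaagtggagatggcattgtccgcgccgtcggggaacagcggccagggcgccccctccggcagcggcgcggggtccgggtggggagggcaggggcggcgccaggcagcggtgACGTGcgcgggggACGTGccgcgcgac
Pgk1: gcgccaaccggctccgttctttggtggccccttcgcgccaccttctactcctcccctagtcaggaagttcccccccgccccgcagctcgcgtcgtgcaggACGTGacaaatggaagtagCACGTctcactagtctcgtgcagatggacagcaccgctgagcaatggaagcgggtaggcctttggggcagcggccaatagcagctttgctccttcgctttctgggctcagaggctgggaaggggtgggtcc
Eno3: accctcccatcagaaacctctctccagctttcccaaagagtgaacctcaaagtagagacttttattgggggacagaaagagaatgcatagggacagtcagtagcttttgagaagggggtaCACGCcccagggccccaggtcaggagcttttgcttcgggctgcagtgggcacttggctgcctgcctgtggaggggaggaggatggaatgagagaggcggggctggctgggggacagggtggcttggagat
Pfkfb2: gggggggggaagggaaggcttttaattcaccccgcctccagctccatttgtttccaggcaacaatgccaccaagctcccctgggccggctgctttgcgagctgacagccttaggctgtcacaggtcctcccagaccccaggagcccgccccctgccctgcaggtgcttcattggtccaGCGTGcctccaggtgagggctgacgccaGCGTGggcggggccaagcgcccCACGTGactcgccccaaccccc
Ldha: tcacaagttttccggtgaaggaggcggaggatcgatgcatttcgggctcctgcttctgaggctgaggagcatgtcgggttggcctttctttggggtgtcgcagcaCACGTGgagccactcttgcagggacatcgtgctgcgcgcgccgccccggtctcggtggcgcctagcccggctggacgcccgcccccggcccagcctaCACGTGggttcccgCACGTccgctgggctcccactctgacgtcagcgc
The 2 cores of Slc16a3 begin 27 and 14 bases before the start. Pgk1 has a core on each strand, 150 and 131 bases before the start, and Eno3 a single one at 130. In Ldha and Pfkfb2 the 6-letter runs in capitals are the E-box CACGTG, which holds ACGTG on both strands. A core of either kind stood in the window of at least 1 start of 28 of the 34 members found in the promoter table (82.4%), against 41.5% of all 27025 gene symbols there. Counted by window, the shares were 71.7% of 53 windows of members and 38.6% of all 32851 windows. Both cores hold the pair CG, and the symbols were not matched to the members for expression or base composition. The part of these in the shares was not tested. ACGTG itself was found in 50.0% of these members and 18.5% of all symbols, and the GC box GGGCGG in 58.8% and 35.4%. The T-box core AGGTGT was found in 4 members (11.8%) and in 13.6% of all symbols, and the TATA box TATAAA in 1 member (2.94%) and in 14.3% of all symbols. Matches stood in members that fell (such as Pfkfb2 and Pdk2), that rose (such as Slc16a3 and Ldha) and that did neither (such as Hk1, Ldhb and Pygm). Neither core was found for Tpi1, which rose, or for Dlat, Gbe1, Gpi1, Gys1 and Pgam2, which did not pass the test. A match is a run of letters and does not show a site in use.

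Of 12 genes known to be induced by hypoxia but outside glycolysis, 0 were called higher and 1, the vasodilator peptide gene Adm, was called lower (log2 fold change -1.76 ± 0.16 SE, adjusted p = 5.31e-06 by edgeR). Both counts are near the shares over all genes tested, 8.50% called higher and 7.16% called lower. With the adjusted p alone 3 of the 12 were lower (Adm, P4ha1 and Egln1) and 0 higher by edgeR, at a median log2 fold change of -0.17. Over all genes tested 15.0% were lower and 16.3% higher, and the list was not tested against these shares. At an unadjusted p under 0.05, 1 of the 12 was higher and 4 were lower by edgeR, and likewise by DESeq2, where the share over all genes was not counted. Hif1a, which encodes an oxygen-sensitive subunit of the factor, rose (log2 fold change 0.47 ± 0.11, adjusted p = 0.00480), and Epas1, which encodes another, fell (log2 fold change -0.62 ± 0.13, adjusted p = 0.00368).

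Glucose enters cardiomyocytes through Slc2a4, the insulin-responsive transporter GLUT4, and Slc2a1, the basal transporter GLUT1, and is phosphorylated by the hexokinases Hk1 and Hk2. Per kilobase of transcript, the labelled controls had 96.2 CPM of Slc2a4 and 6.93 CPM of Slc2a1, and nearly level values of Hk1 (39.7) and Hk2 (36.4). None of these 4 genes passed the test, and none had an unadjusted p under 0.05 by edgeR or DESeq2 (0 of 4 with either). Slc2a4 was at 203, 212, 259 and 297 CPM in the labelled controls (M1, M2, F1 and F2, an order kept for every gene) and between 204 and 296 CPM, with a median of 247, in the labelled mutants, so that the groups covered the same range. The 95% interval of its log2 fold change ran from -0.26 to 0.29. The intervals of Slc2a1 (-0.15 to 0.49), Hk1 (-0.09 to 0.30) and Hk2 (-0.36 to 0.14) likewise spanned 0.

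The committed step of glycolysis is made by 3 phosphofructokinase genes, of which Pfkm encodes the muscle subunit, Pfkl the liver subunit and Pfkp the platelet subunit. In the labelled controls Pfkm stood at 245 CPM per kilobase, Pfkl at 25.3 and Pfkp at 16.1. Pfkl was at 84.2, 83.1, 105 and 106 CPM in the labelled controls and at 109, 123 and 130 CPM (lowest, median, highest) in the labelled mutants. All 6 mutants lay above all 4 controls, and Pfkl rose by a log2 fold change of 0.35 ± 0.10 (SE, adjusted p = 0.0158 by edgeR), which ended at an adjusted p of at most 0.0545 without control M1 or M2.

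Pfkp was at 72, 63.7, 66.5 and 64.2 CPM in the labelled controls and at 72.2, 80.0 and 107 CPM (lowest, median, highest) in the labelled mutants. The lowest mutant and the highest control were nearly level, and Pfkp rose by 0.36 ± 0.11 on the log2 scale (adjusted p = 0.0273 by edgeR), losing the threshold without control M2, F1 or F2 (at most 0.0694). Pfkm did not pass the test (log2 fold change -0.33 ± 0.12, adjusted p = 0.0519 by edgeR), with 559, 627, 806 and 829 CPM in the labelled controls and a range of 497 to 612 CPM in the labelled mutants. It was lower with an adjusted p under 0.05 in 6 of 24 alternatives, among them DESeq2 and the fit without control M1, and stayed over 0.05 in 18. Gpi1, phosphoglucose isomerase, which feeds this step, had a log2 fold change of 0.28 ± 0.11 (adjusted p = 0.0633 by edgeR).

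Because the scaling of libraries cancels in a ratio of 2 genes within a library, the isoenzymes were also set against each other in each mouse. There were 6.64 to 7.83 reads of Pfkm per read of Pfkl in the labelled controls and 3.83 to 5.20 in the labelled mutants, with no overlap. The ratio of Pfkm to Pfkp ran from 7.76 to 12.9 in the labelled controls and from 4.64 to 8.47 in the labelled mutants, where the groups met. No test was made of the ratios.

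**Figure D2:**
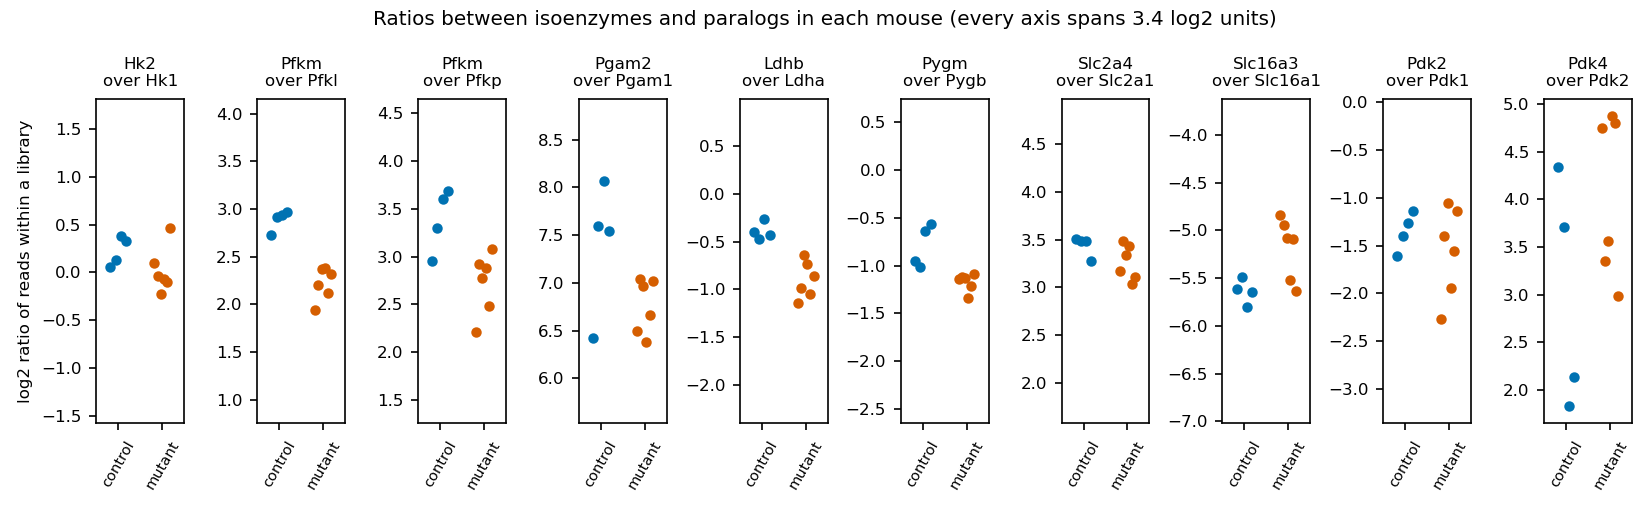
Log2 ratio of reads of 2 related genes within each library (vertical axes, equal spans) for the 4 mice labelled control (blue) and the 6 labelled Tbx5 mutant (orange). The groups are apart for Pfkm over Pfkl, Ldhb over Ldha and Pygm over Pygb and share part of their range for the other 7 ratios.

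Aldolase splits fructose bisphosphate into trioses, which triose phosphate isomerase interconverts. Aldoa, the muscle aldolase, had the highest level per length in the labelled controls, at 768 CPM per kilobase, among the 31 members other than Gapdh, Eno1, Pgk1 and Pgam1, whose counts are uncertain because of shared sequence. Tpi1 was at 262, 287, 310 and 317 CPM in the labelled controls and at 400, 416 and 523 CPM (lowest, median, highest) in the labelled mutants. The groups did not overlap, and Tpi1 rose by a log2 fold change of 0.57 ± 0.10 (adjusted p = 0.00110 by edgeR), a fold of 1.49 that ended just under the call threshold. Aldoa was at 961, 1088, 1234 and 1475 CPM in the labelled controls and between 1400 and 1726 CPM in the labelled mutants, overlapping at control F2. It rose by 0.39 ± 0.13 on the log2 scale (adjusted p = 0.0341 by edgeR), and lost the threshold in 11 of 24 alternatives, among them those without control M1, M2 or F1 and without mutant F2, F3, M2 or M3 (at most 0.180). Aldoc, the brain aldolase, stayed under 2 CPM in all 10 mice and was not tested.

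Phosphoglycerate kinase and enolase carry the lower part of the pathway. Pgk1 was at 14, 11.1, 14.7 and 13.9 CPM in the labelled controls and at 16.9, 20.0 and 33.6 CPM (lowest, median, highest) in the labelled mutants. Every mutant lay above every control, with a log2 fold change of 0.72 ± 0.18 (adjusted p = 0.00915 by edgeR, exact two-sided permutation p = 0.00952, the smallest that 4 against 6 mice can give). Eno3 was at 552, 746, 602 and 707 CPM in the labelled controls (mean 652 ± 90.3 SD, n = 4) and at 842, 966 and 1126 CPM (lowest, median, highest) in the labelled mutants (mean 981 ± 111 SD, n = 6). The groups were apart, and the log2 fold change was 0.59 ± 0.12 (adjusted p = 0.00281 by edgeR). Pgam2, the muscle phosphoglycerate mutase, was at 404 CPM per kilobase in the labelled controls, close to Eno3 at 417, and did not pass the test (log2 fold change -0.11 ± 0.12, adjusted p = 0.535 by edgeR); with the length trend removed it passed, at -0.37 (adjusted p = 0.0158). Pkm, pyruvate kinase, listed in the table under its older symbol and taken from the wider pathway list, rose by 0.29 ± 0.09 on the log2 scale (adjusted p = 0.0343 by edgeR) and lost the threshold in 11 of 24 alternatives.

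**Figure D3:**
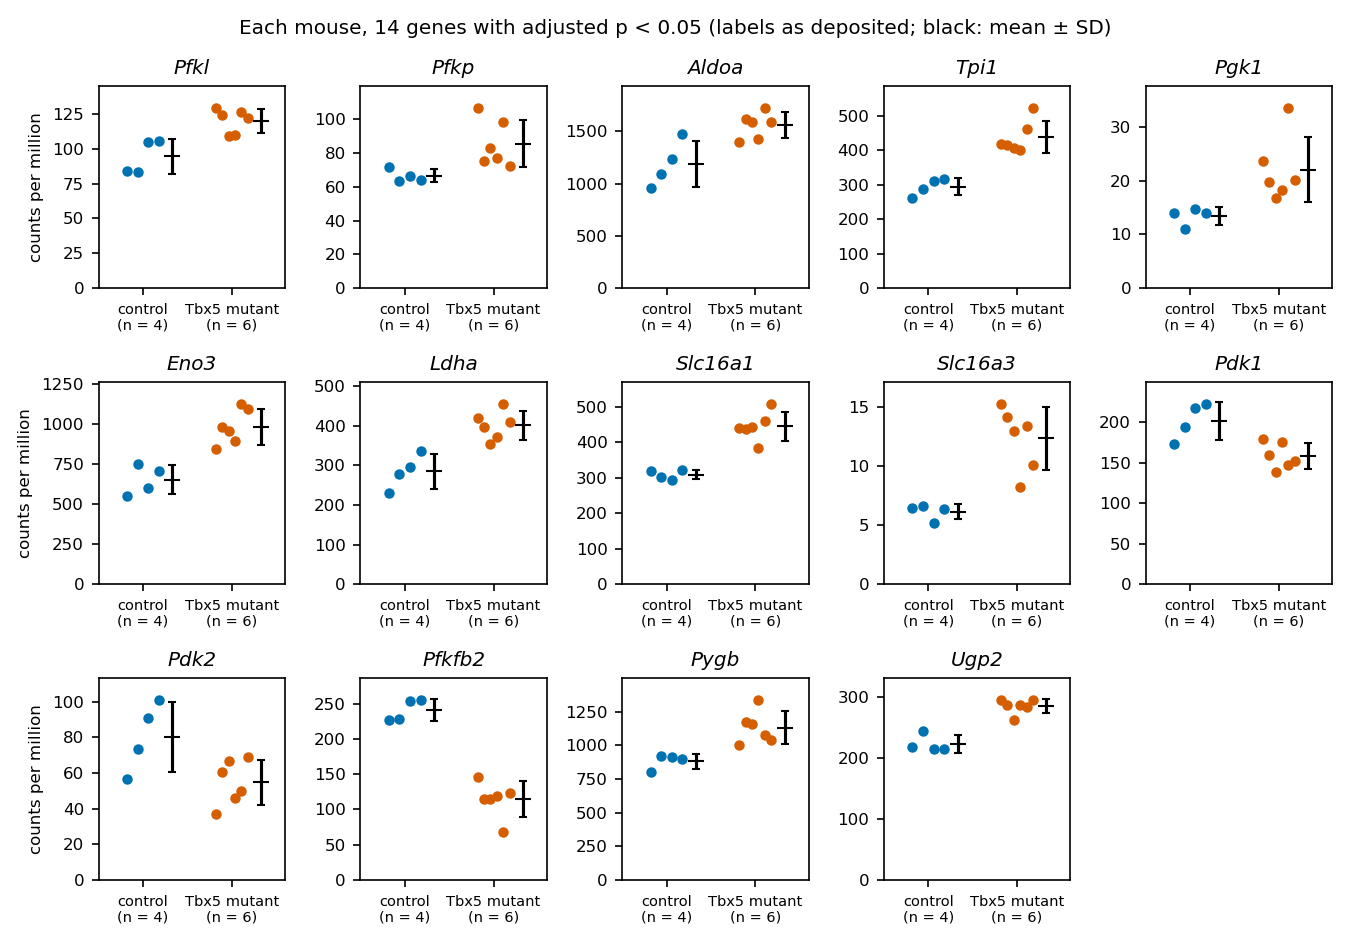
CPM of each mouse (vertical axes from 0; black marks, mean ± SD) for the 14 genes with an adjusted p under 0.05, in 4 mice labelled control (blue) and 6 labelled Tbx5 mutant (orange). The groups do not overlap for Pfkl, Pfkp, Tpi1, Pgk1, Eno3, Ldha, Slc16a1, Slc16a3, Pfkfb2, Pygb and Ugp2, and they overlap for Aldoa, Pdk1 and Pdk2.

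Several abundant enzymes were nearly absent from the counts. Gapdh, glyceraldehyde-3-phosphate dehydrogenase, which is needed in every cell, had 4 to 18 reads per library, or 1.09 to 2.84 CPM, and Eno1, the widely expressed enolase, had 0 reads in all 10. Pgam1, the widely expressed mutase, had 9 to 21 reads. Windows of 51 bases, the length of a read, were compared with transcripts of other GENCODE M21 genes that do not overlap the member. The share also found there was 82.4% for the coding transcript of Gapdh, 71.9% for Eno1, 67.9% for Pgk1 and 41.4% for Pgam1. The next members were Pdhb at 29.8%, Ldhb at 26.3%, Gpi1 at 19.0%, Ldha at 15.9%, Aldoa at 12.9% and Tpi1 at 7.19%. The median over 22872 genes was 0, with overlapping genes counted too. Windows shared with an annotated gene that overlaps the member were 25.1% for Pfkfb2, 17.0% for Pfkp and 16.4% for Pdha1, and at most 7.48% for the others. The transcript of Gapdh shared windows with 211 annotated pseudogenes, that of Pgk1 with 5 and that of Pgam1 with 4. How reads with several matches were counted is not given in the sources used here, and the part of shared sequence in these low values was not tested. The levels of Gapdh, Eno1, Pgk1 and Pgam1 are therefore uncertain, and the fold change of Pgk1 is that of the reads counted. Gapdh had a log2 fold change of -0.05 ± 0.29 and Pgam1 of 0.51 ± 0.25, and neither passed the test.

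**Figure D4:**
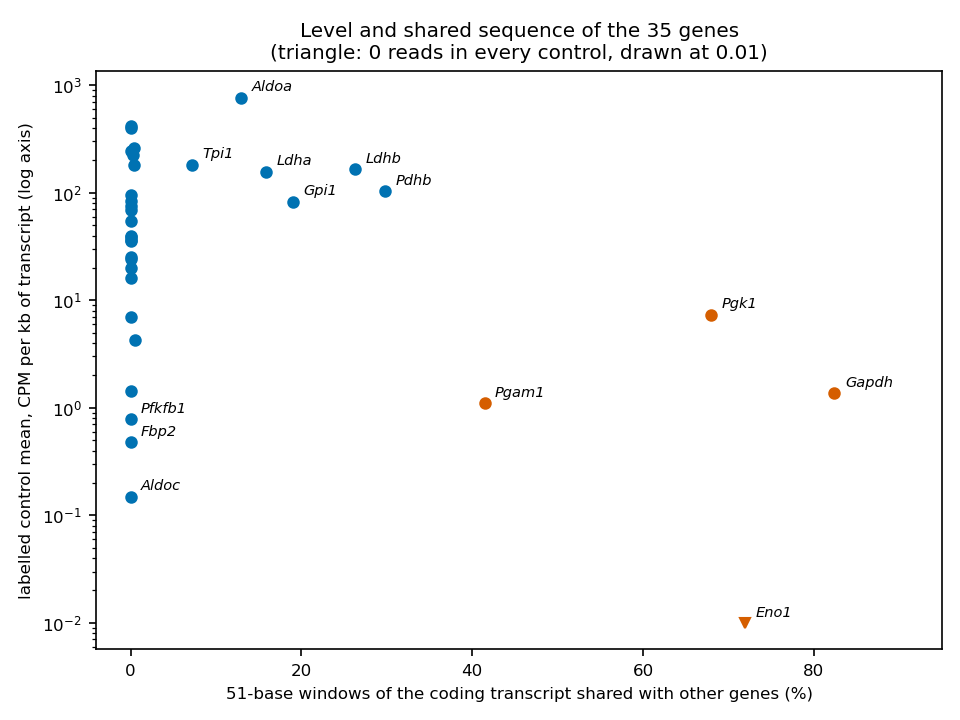
Mean level in the 4 mice labelled control (vertical log axis, CPM per kilobase of transcript) against the share of 51-base windows of the coding transcript found in transcripts of other genes that do not overlap it (horizontal axis, percent) for the 35 genes. The 4 genes with over 40% shared windows (orange: Pgam1, Pgk1, Eno1 and Gapdh) all stand under 10 CPM per kilobase, as do 6 genes with under 1% shared windows (Aldoc, Fbp2, Pfkfb1, Slc16a3, Pfkfb3 and Slc2a1).

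Lactate dehydrogenase converts pyruvate and lactate into each other, with Ldha as the muscle and Ldhb as the heart subunit. Ldha was at 230, 279, 297 and 337 CPM in the labelled controls and at 355, 404 and 457 CPM (lowest, median, highest) in the labelled mutants. The groups were apart and Ldha rose by a log2 fold change of 0.49 ± 0.11 (adjusted p = 0.00568 by edgeR), while Ldhb did not pass the test (log2 fold change -0.02 ± 0.11, 95% interval -0.24 to 0.19). There were 0.720 to 0.832 reads of Ldhb per read of Ldha in the labelled controls and 0.452 to 0.642 in the labelled mutants, without overlap. Per kilobase the labelled controls had 167 CPM of Ldhb and 157 of Ldha.

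The monocarboxylate transporters Slc16a1 (MCT1) and Slc16a3 (MCT4) carry lactate across the cell membrane, and the second is best known from tissues that export it. Slc16a3 was at 6.43, 6.62, 5.17 and 6.36 CPM in the labelled controls and at 8.23, 13.2 and 15.3 CPM (lowest, median, highest) in the labelled mutants. Every mutant was above every control, and Slc16a3 rose by a log2 fold change of 1.02 ± 0.18 (adjusted p = 0.000872 by edgeR). Slc16a1 was at 318, 301, 293 and 320 CPM in the labelled controls and at 382, 441 and 508 CPM in the labelled mutants (lowest, median, highest). The groups were again apart, with a rise of 0.53 ± 0.09 on the log2 scale (adjusted p = 0.00100 by edgeR). Slc16a3 was far the rarer of the pair at 1.42 CPM per kilobase in the labelled controls, against 69.6 for Slc16a1.

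RNA of some markers of other cells of the atrium also differed between these groups. The part of such cells in the rise of Slc16a3, Pgk1 or Pfkl was not tested. The counts of markers called stand beside 7.16% called lower and 8.50% called higher of all genes tested, and no list was tested against these shares. The summed CPM of 6 leukocyte markers was 214 to 372 in the labelled controls and 368 to 539 in the labelled mutants, with 3 of the 4 tested markers called higher. Of the fibroblast markers 3 of 6 were called higher, the collagens Col1a1, Col1a2 and Col3a1, with summed levels of 3767 to 4972 against 6171 to 9378 CPM, while Dcn (log2 fold change -0.01 ± 0.12) was not and Pdgfra fell (-0.40 ± 0.11, adjusted p = 0.0152 by edgeR). All 5 markers of cycling cells were called higher, from 10.8 to 25.5 up to 70.4 to 244 CPM. The 8 cardiomyocyte markers summed to 133811 to 184710 CPM in the labelled controls and to 77481 to 148812 in the labelled mutants. The largest single part in each library came from Ttn, at 63169 to 106625 against 27143 to 90195 CPM, which did not pass the test (adjusted p = 0.146 by edgeR). Of the 8, Tnnt2 was called higher and Myl7, Nppa and Sln lower, Actn2 was higher and Myl4 lower by the adjusted p alone (0.0263 and 0.0217 by edgeR), and Myh6 had a log2 fold change of 0.10 ± 0.18. Endothelial markers (895 to 1195 against 1030 to 1256 CPM, 0 of 5 called by edgeR and Emcn higher by the adjusted p alone) and skeletal muscle markers (26.1 to 37.5 against 30.2 to 47.9 CPM, 1 called in each direction) overlapped. Adipocyte markers were too low to test, at most 20.8 CPM in sum. Of the 5 red blood cell genes found, 2 were called higher (84.6 to 192 against 113 to 595 CPM in sum). Hba-a1 and Hba-a2 had 0 reads in all libraries, while the beta-globin gene Hbb-bs had 521 to 3761 reads. Why Hba-a1 and Hba-a2 were at 0 was not tested.

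Pyruvate enters oxidation through pyruvate dehydrogenase, whose subunits Pdha1, Pdhb and Dlat did not pass the test (log2 fold changes 0.22, 0.15 and 0.17, adjusted p = 0.112, 0.403 and 0.209 by edgeR). Its inhibitory kinases Pdk1 and Pdk2 were lower. Pdk2 was at 56.6, 73.3, 90.8 and 101 CPM in the labelled controls and at 37.1, 55.2 and 68.9 CPM (lowest, median, highest) in the labelled mutants. The groups overlapped at control M1, and Pdk2 fell, at a log2 fold change of -0.56 ± 0.18 (adjusted p = 0.0304 by edgeR). Pdk1 was at 173, 194, 218 and 223 CPM in the labelled controls and between 139 and 179 CPM in the labelled mutants, and fell (log2 fold change -0.35 ± 0.10, adjusted p = 0.0189 by edgeR). Without control F1, and likewise without control F2, neither kinase passed the adjusted p, and Pdk2 did not without mutant M2. Pdk4, the kinase induced by fasting, and Pdk3 did not pass the test (log2 fold changes 0.40 ± 0.35 and 0.14 ± 0.10). Pdk4 varied widely, at 1143, 958, 323 and 447 CPM in the labelled controls. It was higher with an adjusted p under 0.05 in 2 of 24 alternatives, both with the replicate block (0.0329 at the lowest, by edgeR). The mitochondrial pyruvate carrier subunits Mpc1 (log2 fold change 0.59 ± 0.23, adjusted p = 0.0643 by edgeR) and Mpc2 (0.28 ± 0.13, adjusted p = 0.110) also did not pass the test.

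The bifunctional Pfkfb enzymes make and break down fructose 2,6-bisphosphate, the activator of phosphofructokinase. Pfkfb2, the heart form, was at 227, 228, 254 and 256 CPM in the labelled controls (mean 241 ± 15.7 SD, n = 4). In the labelled mutants it was at 68.3, 117 and 146 CPM (lowest, median, highest; mean 114 ± 25.4 SD, n = 6). Every mutant lay below every control, with a log2 fold change of -1.08 ± 0.15 (adjusted p = 0.000166 by edgeR, exact two-sided permutation p = 0.00952, the smallest possible). It was the only one of the 31 tested members with all labelled mutants below all labelled controls (3.23%, against 11% of all genes tested), while 10 had all mutants above (32.3%, against 11.7%). Of its 51-base windows, 25.1% also lie in an annotated gene that overlaps it, and without strand these reads cannot be assigned. Pfkfb3, the inducible form, had a log2 fold change of 0.29 ± 0.17 (adjusted p = 0.206 by edgeR). Pfkfb1, the liver form, and Fbp2, the muscle fructose bisphosphatase that runs the step backwards, stayed under 3 CPM in every mouse and were not tested.

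Glycogen is built from UDP-glucose, made by Ugp2, by glycogen synthase (Gys1) and the branching enzyme (Gbe1), and is broken down by glycogen phosphorylase, of which Pygm is the muscle and Pygb the brain form. Ugp2 was at 217, 245, 214 and 214 CPM in the labelled controls and at 263, 287 and 295 CPM (lowest, median, highest) in the labelled mutants. The groups were apart and Ugp2 rose by a log2 fold change of 0.36 ± 0.08 (adjusted p = 0.00502 by edgeR). Pygb was at 800, 919, 910 and 901 CPM in the labelled controls and at 1003, 1117 and 1339 CPM in the labelled mutants (lowest, median, highest). It rose, without overlap, by 0.36 ± 0.11 on the log2 scale (adjusted p = 0.0232 by edgeR, and at most 0.0718 over the alternatives), and its adjusted p was over 0.05 in 3 of 24 alternatives, 1 of them without control M1. There were 0.494 to 0.675 reads of Pygm per read of Pygb in the labelled controls against 0.395 to 0.470 in the labelled mutants. Pygm, Gys1 and Gbe1 had log2 fold changes of -0.04 ± 0.12, 0.16 ± 0.15 and 0.16 ± 0.11 and did not pass the test.

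Genes that control glycogen breakdown and synthesis also changed. In a list of 91 further genes of the pathway, 81 were tested and 21 were called, 14 lower and 7 higher. The 7 higher are near the 8.50% called higher over all genes tested, and the 14 lower lie above the 7.16% called lower, which was not tested. With the adjusted p alone 21 were lower and 17 higher, at a median log2 fold change of -0.01, against 15.0% lower and 16.3% higher over all genes tested. With the trend on transcript length removed, the list had 8 genes called lower instead of 14, and 7 called higher. Phkg1, the catalytic subunit of the kinase that switches glycogen phosphorylase on, was at 106, 119, 128 and 137 CPM in the labelled controls and at 42.4, 45.9 and 58.5 CPM (lowest, median, highest) in the labelled mutants. The groups were far apart, with a log2 fold change of -1.37 ± 0.10 (adjusted p = 7.29e-07 by edgeR), and the regulatory subunits Phka1 (log2 fold change -0.44 ± 0.12) and Phka2 (-0.43 ± 0.12) fell too. The 250 bases before the start of Phkg1, chr5:129879089-129879338 (-), are shown because they hold the T-box core AGGTGT, in capitals, 107 bases before the start. The windows of 13.6% of all symbols hold it too. No other gene of the wider list is shown, the core was not counted over that list, and a match does not show a site in use.
Phkg1: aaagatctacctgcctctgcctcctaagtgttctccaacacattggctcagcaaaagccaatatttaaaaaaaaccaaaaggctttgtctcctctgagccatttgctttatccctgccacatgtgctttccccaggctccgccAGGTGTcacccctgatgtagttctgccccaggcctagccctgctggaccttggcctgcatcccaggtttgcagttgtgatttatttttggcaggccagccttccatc
Ppp1r3c, which brings protein phosphatase 1 to glycogen and so favours its synthesis, rose from 221, 268, 274 and 249 CPM in the labelled controls to 423, 507 and 560 CPM (lowest, median, highest) in the labelled mutants. The groups did not overlap (log2 fold change 0.99 ± 0.11, adjusted p = 1.88e-05 by edgeR), and Ppp1r3a, which does the same in striated muscle, rose by 0.85 ± 0.23 on the log2 scale with 4 of 6 mutants above all controls. Nhlrc1, a ubiquitin ligase of glycogen metabolism, fell (log2 fold change -1.0 ± 0.24), and Gyg, the primer of glycogen, did not pass the test (-0.12 ± 0.08). With the length trend removed Gyg passed, at -0.24 (adjusted p = 0.0181 by edgeR).

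**Figure D5:**
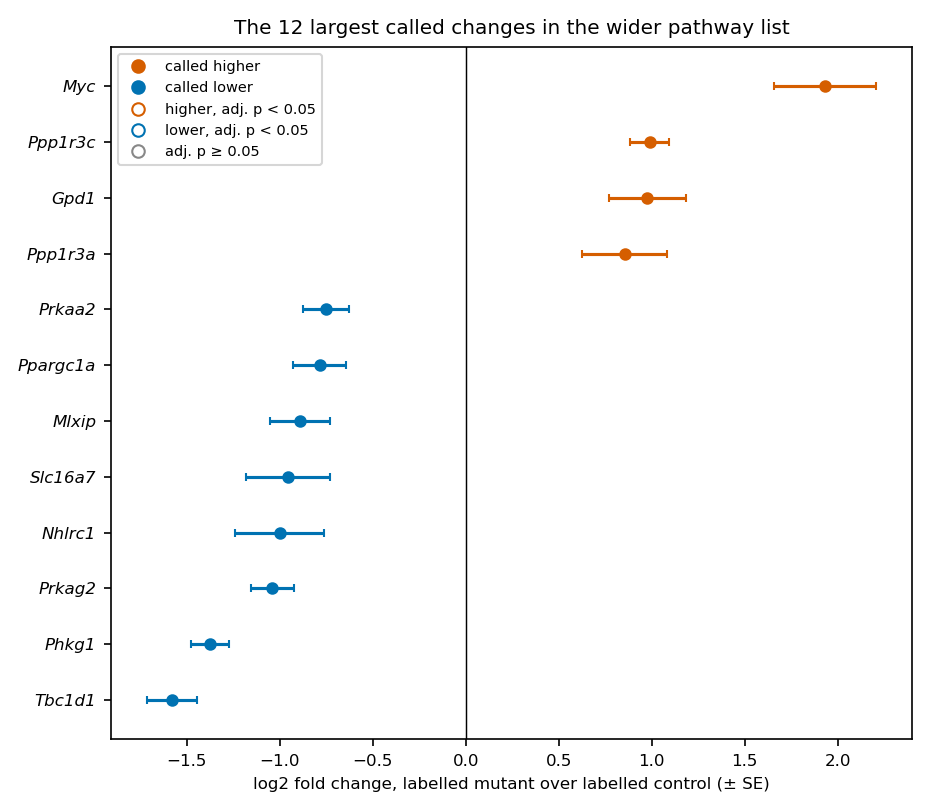
Log2 fold change of the mice labelled Tbx5 mutant over those labelled control (horizontal axis, bars ± SE) for the 12 largest of the 21 called changes among 81 tested genes of the wider pathway list. Of the 12, 8 were lower, led by Tbc1d1 at -1.58, and 4 were higher, led by Myc at 1.93.

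Tbc1d1, a Rab GTPase-activating protein that holds GLUT4 vesicles inside the cell, was at 456, 439, 653 and 606 CPM in the labelled controls and at 137, 187 and 200 CPM (lowest, median, highest) in the labelled mutants. The groups were far apart (log2 fold change -1.58 ± 0.13, adjusted p = 2.75e-06 by edgeR), and its relative Tbc1d4 fell too (-0.65 ± 0.12, adjusted p = 0.00140). Of the AMP-activated kinase subunits, Prkag2 (log2 fold change -1.04 ± 0.11) and Prkaa2 (-0.75 ± 0.12) fell. The coactivator of mitochondrial genes Ppargc1a (log2 fold change -0.79 ± 0.14) and the glucose-sensing factor Mlxip (-0.89 ± 0.16) fell as well.

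Myc, a transcription factor with many glycolytic targets, was at 1.29, 1.99, 0.784 and 1.76 CPM in the labelled controls and between 4.29 and 7.86 CPM in the labelled mutants (log2 fold change 1.93 ± 0.27, adjusted p = 0.000175 by edgeR), and rose beside the cycling cell markers given above. Gpd1, which links trioses to lipid synthesis and the glycerol phosphate shuttle, rose by 0.98 ± 0.21 on the log2 scale, and Slc16a7 (MCT2), a transporter of pyruvate and lactate, fell (log2 fold change -0.95 ± 0.23). Txnip, an inhibitor of glucose uptake that rises with glucose, had a log2 fold change of 0.33 ± 0.14 (adjusted p = 0.0907 by edgeR). By role, 8 of the 16 transcriptional and energy-sensing genes tested were called, 7 of them lower, and 5 of the 18 glycogen genes, 2 lower and 3 higher, beside 7.16% called lower and 8.50% called higher of all genes tested. The 2 lower glycogen genes are close to that share, and no role was tested against it. Calls by role were not counted with the length trend removed. None of the 10 tested genes of lower glycolysis in the wider list was called, and 4 of them (Pkm, Bpgm, Galk1 and Pgm2) rose by the adjusted p alone.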

How the data were processed

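The libraries were single-end RNA-seq of mouse right atria, grouped by their labels. The submitters' processing notes name FastQC, TopHat2 2.0.11, featureCounts, DESeq2 and mm10; settings and annotation are not given in the sources used here. The authors deposited 1 table with raw counts per gene symbol, a normalized signal (counts divided by a size factor per library) and their own comparison, deposited as a log2 fold change, a Wald score, p-values and a linear ratio, which was not used.

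Counts were tested with edgeR 4.0.16 in R 4.3.3 (expression filter, TMM scaling, quasi-likelihood test, prior count 0.125, no covariates, Benjamini-Hochberg adjustment over 13084 genes). CPM use TMM library sizes, and ratios within a library a pseudocount of 0.5. Single genes were set against all 210 splits of the mice in an exact permutation test (two-sided). Lengths and shared 51-base windows came from the longest coding GENCODE M21 transcript, compared with transcripts because no genome was used here. Of the listed genes, 6 were found under another symbol. The 35 members, the other lists and the tests were chosen with earlier results of these data known. Named were all members, the called genes of the wider pathway list up to the 12 largest changes, and some genes fixed by name, of which 1 is not reported here. DESeq2 1.42.0 and limma 3.58.1 (prior count 1) served as alternatives, beside other scalings, filters, covariates, thresholds, trends on length and GC content (lowess span 0.4) and each library left out.

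On counts simulated from these libraries (12984 genes), 84 of 100 genes changed 2-fold and 41 of 100 changed 1.5-fold were recovered. Recovery required an adjusted p under 0.05 by edgeR in the right direction, and there were 6 false calls by the adjusted p. The fold and control mean thresholds of the call were not applied. The 3 counts taken as detectable are 4.23e-05% to 5.26e-05% of a library; without molecular identifiers this covers counting error only. The deposited table held 0 columns of other samples.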

Additional observations from a re-analysis of the deposited data

Results flagged for a closer look

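A mouse far from the rest of its group was found in 7 of 104 groups of values, where chance gives about 5.2. Among the members, Pygb was lowest in control M1 at 799.7 CPM, Ugp2 was highest in control M2 at 244.5 CPM, and Ugp2 was lowest among the labelled mutants in mutant F3 at 262.9 CPM. In none of these cases did the mouse reach the range of the other group. In the wider pathway list, Tbc1d1 was lowest in mutant M2 at 136.7 CPM and Phkg1 highest among the labelled mutants in mutant M1 at 58.5 CPM. Txnip was highest in mutant M1 at 1218.8 CPM, and Mpc2 in mutant M3, the library rich in Rn45s, at 205.6 CPM.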

How the results depend on the processing

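The replicate numbers did not pair the mice: deviations of the 4 same-numbered pairs correlated at -0.047 to 0.036. In each pair the control and the mutant differed in their reads of Xist and Ddx3y, since the sex labels of the controls went against these reads. The replicate block and the covariate of labelled sex therefore matched mice that differ in these reads. No fit used sex as read from them. With the replicate block 1957 genes were called, of the members 2 lower and 2 higher. The members called lower were also 2 with the trend on transcript length removed, alone or with the replicate block, and with that on GC content removed; both fits with the length trend removed called 8 of the wider pathway list lower. A fold over 2 left 906 genes (367 lower, 539 higher), 2 members (1 higher) and 5 of the wider list (4 lower, 1 higher). No fold threshold gave 4096 genes (1967 lower, 2129 higher), 14 members (3 lower, 11 higher) and 38 of the wider list (17 higher). A mean count of at least 50 left 1284 genes (653 higher). Leaving out each library in turn gave 2 to 6 members called (2 without mutant M2, 6 without control F2 or mutant F3), 1 to 2 lower and 1 to 5 higher, with 1 to 4 lower and 8 to 12 higher by the adjusted p alone, and 18 to 23 called in the wider list, 11 to 15 lower and 6 to 10 higher. Of 742 alternative fits of the 31 members, 670 kept direction and side of the threshold and 26 turned direction, in 6 genes that did not pass the test: Slc2a4 (block -0.069, length -0.046, GC content -0.037, block and length -0.12, libraries left out -0.053 to 0.13), Hk2 (length 0.022, libraries left out -0.18 to 0.0029), Gapdh (block 0.030, libraries left out -0.21 to 0.086), Ldhb (upper quartile 0.0092, quantile 0.043, libraries left out -0.11 to 0.055), Pdhb (length -0.025, block and length -0.13), Pygm (libraries left out -0.13 to 0.052). In the wider list, Mpc2 (block and length -0.012) and Pdk3 (block and length -0.0021) turned. Genes called lower were 41.7% to 49.1% of calls. Depth limits Gapdh and Pgam1, at most 21 reads a library. The causes of these differences were not tested.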
